A study of Homo sapiens with 4 samples.

Results

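NF-kB is the transcription factor family through which monocytic cells switch on inflammatory and survival genes, and 10 of its genes were followed on expression arrays of a leukaemic cell line given a miR-511 mimic: the subunits NFKB1, NFKB2, REL, RELA and RELB, the inhibitors NFKBIA, NFKBIB, NFKBIE and TNFAIP3, and the kinase IKBKB. The members were all non-control probes that carry one of these gene symbols in the array files, which gave 12 probes of 34127, for 10 genes of 27193 gene names. RELA and NFKBIB had 2 probes each and the other 8 genes 1 each. Of the 12 probes, 6 measured subunits, 5 inhibitors and 1 the kinase.

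The cells were THP1, one human line of monoblastic acute myeloid leukaemia that carries the fusion gene MLL-AF9. They were transfected with 30 nM of a synthetic miR-511 mimic or with 30 nM of negative control #1 mimic, and RNA was taken on day 2. Both treatments thus carried transfection reagent and a synthetic RNA, and untransfected cells were not analysed here. Each treatment was run in 2 independent experiments, giving 4 single-dye arrays, 2 per treatment, so the number of arrays limits the precision, and all statements hold for this 1 line. The cell type was checked with markers of monoblasts. Of 8 such genes, 7 had a probe well above background on all 4 arrays (MPO, CD33, PTPRC, SPI1, CSF3R, CD4 and ITGB2), with miR-511 mimic minus control mimic differences between -0.098 and 0.11 on the log2 scale, and LYZ was not analysed here. Of the markers of other cells, the epithelial gene EPCAM and the fibroblast gene COL1A1 exceeded background on 0 of the 4 arrays.

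In resting cells the NF-kB subunits, as dimers, are held in the cytoplasm by IkB proteins. A stimulus activates the IkB kinase complex, the IkB protein is phosphorylated and destroyed, and the freed dimer enters the nucleus. Among the genes it then transcribes are its own brakes: IkB alpha (NFKBIA) and A20 (TNFAIP3) are textbook negative feedback genes, and several subunit genes are also under NF-kB control. A transcript array reads the amount of these mRNAs, not the location or activity of the proteins, and in bulk RNA fewer cells with a transcript cannot be told apart from less transcript per cell.

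The mature strand of the miRNA is shown because the mimic was designed to supply it, with the seed (bases 2 to 8), the stretch that pairs with target transcripts, in capitals. It is encoded at chr10:17845122-17845142 on the plus strand of GRCh38.p14, and the sequence is that of RefSeq.
hsa-miR-511-5p: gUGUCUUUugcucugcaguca

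Promoter stretches are shown for the member genes because NF-kB feeds back on its own genes. RefSeq promoter windows of 300 bases (250 before to 50 after an annotated start, GRCh38.p14) were on hand for 7 of the 10 genes, and both strands were searched for the 10-base NF-kB consensus. A match was found in 6 of the 7 genes (85.7%) and in 7 of their 12 windows (58.3%). Over all 35116 windows the share was 11.3%. Among genes with 1 window it was 10.5%, and among those with 2 or 3 windows, which have more chances, 22.8%. Both RELA windows held none. In the lines below, capitals mark the matched letters, overlapping matches run together, and every stretch lies before the start of transcription. A match describes letters only and is neither a binding site shown here nor a cause of anything measured below.
NFKB1, chr4:102501300-102501329, plus strand: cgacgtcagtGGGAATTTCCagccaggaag
NFKB2, chr10:102394461-102394491, plus strand: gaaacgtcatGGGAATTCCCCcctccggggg
NFKB2, chr10:102395674-102395703, plus strand: tggtattttcGGGACTTTCCtaagctgctc
REL, chr2:60881517-60881547, plus strand: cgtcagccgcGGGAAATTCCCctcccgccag
NFKBIA, chr14:35404811-35404840, minus strand: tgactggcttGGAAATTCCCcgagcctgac
NFKBIB, chr19:38899931-38899961, plus strand: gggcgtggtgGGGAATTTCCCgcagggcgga
TNFAIP3, chr6:137867182-137867223, plus strand: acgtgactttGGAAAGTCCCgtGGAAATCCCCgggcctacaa

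In the stretches shown, the first matched base lay 49 bases before the start in NFKB1, 47 in REL, 81 in NFKBIA, 28 in NFKBIB and 67 in TNFAIP3, in windows that reach 250 bases upstream. NFKB2 had matches in 2 of its 3 windows: those shown lay 107 and 21 bases before their starts, and those not shown 78 and 176 bases. A further NFKBIB match, not shown, lay after the start. A match was present in 3 of the 4 subunit genes and 3 of the 3 inhibitor genes with a window.

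**Figure D1:**
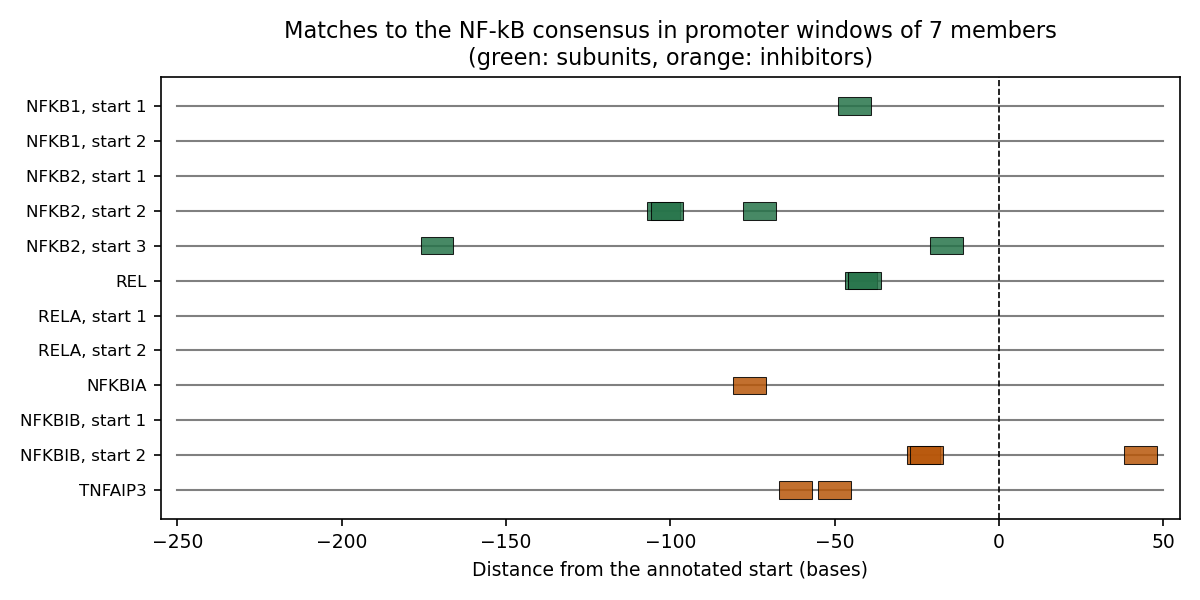
Each line is 1 promoter window of a member gene, with the distance from the annotated start in bases on the x axis and a box for every match to the NF-kB consensus on either strand (green, subunits; orange, inhibitors). Boxes fall in 7 of the 12 windows, and both RELA windows are empty.

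The first question was whether these genes were measured well enough to be compared. All 12 probes were well above background on all 4 arrays, whereas 64.8% to 69.3% of the probes of the whole array were on any 1 array. None of the 48 spots that carry them was marked as an outlier (0), saturated (0) or set to a surrogate value (0) on any array. Values below are quantile-normalized log2 intensities, and a log2FC is the mean of the 2 miR-511 mimic arrays minus the mean of the 2 control mimic arrays, with the standard error (SE) from limma. Values of different probes are not on one scale, so only differences of a probe between arrays are compared.

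With the miR-511 mimic, 0 of the 12 NF-kB probes passed an unadjusted p of 0.05 in limma, against 2.20% of the 22638 probes tested (498 probes). After Benjamini-Hochberg adjustment 0 of the 22638 probes passed by limma, where the smallest adjusted p was 0.790. An ordinary t-test of the 2 against 2 array values of a probe, assuming equal variances, had 708 probes at an unadjusted p below 0.05. After adjustment 0 probes passed by that test as well. Every member had an adjusted p of 1.00 in limma. The median size of the log2FC was 0.070 over the 12 member probes and 0.079 over all tested probes. In experiment 1 the median size of the difference was 0.062 against 0.11, and in experiment 2 it was 0.079 against 0.10. For 6 of the 12 members the difference was smaller than that of the median tested probe in experiment 1 and in experiment 2 alike. The share of all tested probes for which this held was not computed. These sizes are not like for like. Of the 12 member probes 4 were printed 10 times on each array, against 738 of the 22638 tested probes. The direction was the same in both experiments for 4 of the 12 probes, against 51.0% of all tested probes. All 4 were higher with the miR-511 mimic (NFKB1, RELB, NFKBIA and 1 probe of NFKBIB; 29.3% of all tested probes), and 0 were lower in both (21.7%). The treatments did not overlap for 2 of the 12 probes (NFKBIA and the same NFKBIB probe), against 25.7% of all tested probes.

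**Figure D2:**
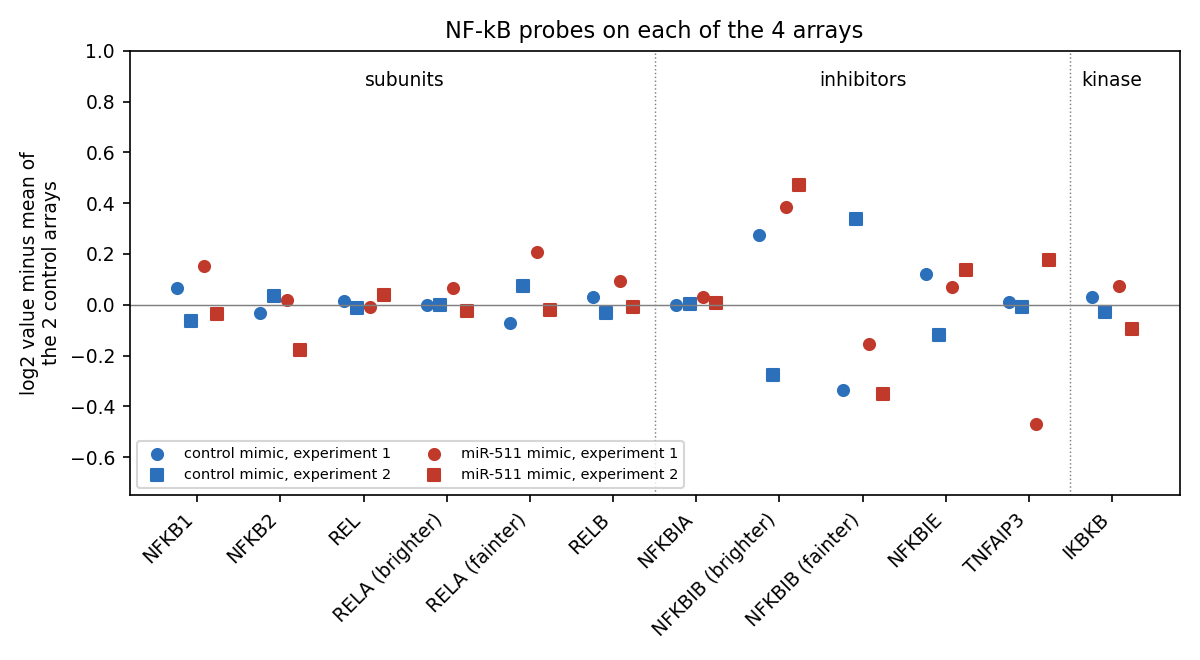
The y axis gives the log2 value of each NF-kB probe on each array minus the mean of its 2 control mimic arrays (red, miR-511 mimic; blue, control mimic; circles, experiment 1; squares, experiment 2), in the order subunits, inhibitors, kinase along the x axis. The subunit probes lie within 0.21 of 0 on all 4 arrays, and the wide points belong to NFKBIB and TNFAIP3.

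NFKB1 encodes p105, which is processed to the DNA-binding subunit p50. Its probe (chr4:103537856-103537915 of hg19, plus strand) had log2 values of 10.88 and 10.70 with the miR-511 mimic and 10.80 and 10.67 with the control mimic in experiments 1 and 2. Within each experiment the miR-511 array was the higher one, by 0.088 and 0.030, but both values of experiment 1 exceeded both of experiment 2, so the treatments overlapped. The log2FC was 0.059 (SE 0.12), a fold of 1.04 with a 95% confidence interval of 0.832 to 1.31.

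RELA encodes p65, the subunit that with p50 makes the classical dimer and carries a transactivation domain. Of its probes, the brighter (chr11:65421651-65421710, minus strand) had 10.20 and 10.11 with the miR-511 mimic and 10.13 and 10.13 with the control mimic. The log2FC was 0.021 (SE 0.093), higher in experiment 1 by 0.065 and lower in experiment 2 by 0.023 (-0.023). The fainter probe of RELA (chr11:65421986-65422045, minus strand) had 9.89 and 9.66 against 9.61 and 9.75. It gave a log2FC of 0.093 (SE 0.13), again with a positive difference in experiment 1 (0.28) and a negative one in experiment 2 (-0.093). The control values lay inside the range of the miR-511 values for the brighter probe, and the treatments overlapped for the fainter probe as well.

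REL encodes c-Rel, a subunit of haematopoietic cells. Its probe (chr2:61149596-61149655, plus strand) read 8.91 and 8.95 with the miR-511 mimic and 8.93 and 8.90 with the control mimic. The 4 arrays spanned 0.052 on the log2 scale and the log2FC was 0.015 (SE 0.090).

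NFKB2 and RELB make up the dimer of the alternative pathway: NFKB2 encodes p100, the precursor of p52, and RELB its usual partner. RELB (chr19:45541385-45541444, plus strand) had 11.83 and 11.73 with the miR-511 mimic against 11.77 and 11.70 with the control mimic. As for NFKB1, the miR-511 array was slightly higher within each experiment, by 0.060 and 0.021, and the treatments overlapped across experiments (log2FC 0.041, SE 0.097). NFKB2 (chr10:104161053-104161229, plus strand, where the 60 bases of the probe span 177 bases of genome) had 6.06 and 5.86 against 6.004 and 6.07. It had the only negative log2FC among the subunits, -0.080 (SE 0.11), with a rise of 0.052 in experiment 1 and a difference of -0.21 in experiment 2.

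IKBKB encodes IKK beta, the kinase subunit that phosphorylates the IkB proteins. Its probe (chr8:42189442-42189501, plus strand) had 10.82 and 10.65 with the miR-511 mimic and 10.77 and 10.71 with the control mimic. The control values lay between the miR-511 values, and the log2FC was -0.011 (SE 0.11), a sign that turned to 0.0012 with 75th percentile scaling and to 0.049 with normexp background correction.

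NFKBIA encodes IkB alpha, the rapidly resynthesized inhibitor of the p65 dimers. Its probe (chr14:35870788-35870847, minus strand) spanned 0.034 over the 4 arrays, the narrowest range of the 12 members, with 12.39 and 12.37 with the miR-511 mimic and 12.36 and 12.36 with the control mimic. The treatments did not overlap, but the differences were 0.034 in experiment 1 and 0.0044 in experiment 2. The log2FC was 0.019 (SE 0.089), and the 95% confidence interval of the fold ran from 0.857 to 1.20.

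The spots behind these values were compared too, since NFKBIA, NFKB1, NFKB2 and the brighter RELA probe were printed 10 times on each array and the other 8 member probes once. The SD among the 10 spots of an array was 0.034 to 0.11 for NFKBIA, and it was 0.028 to 0.067 for NFKB1, 0.046 to 0.091 for RELA and 0.082 to 0.19 for NFKB2. Over all tested probes, those printed 10 times (738) had a median size of difference of 0.064 and 0.063 in experiments 1 and 2, and those printed once (21900) had 0.11 and 0.10. Spots on 1 array share its RNA, so they are no replicates of the treatment.

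**Figure D3:**
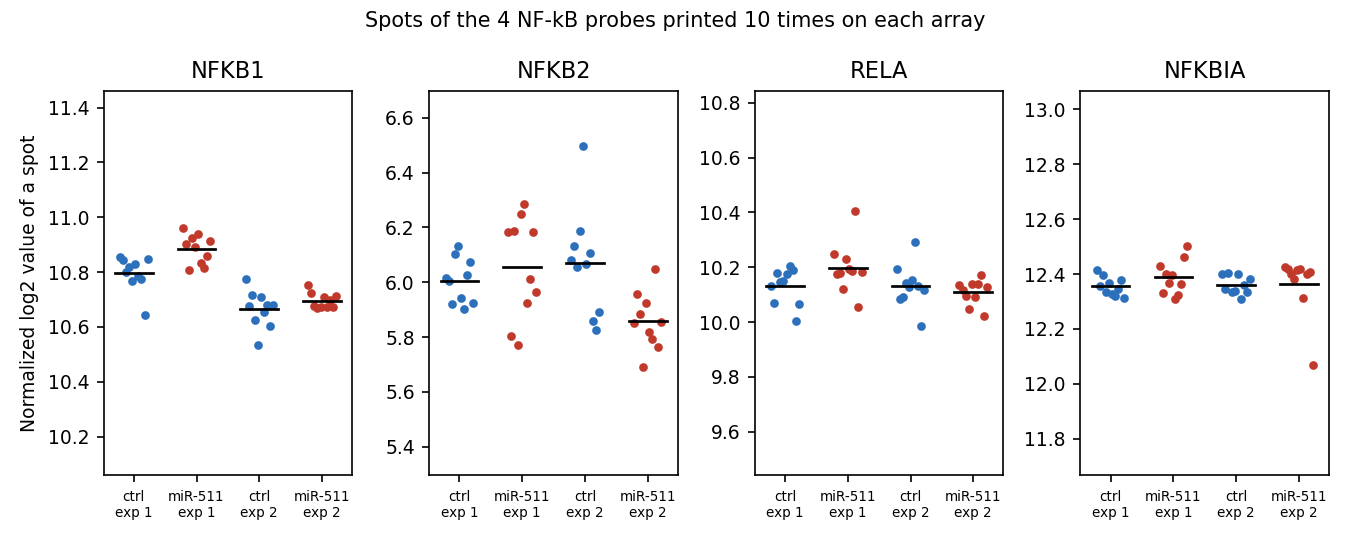
Each point is the normalized log2 value of 1 spot for the 4 NF-kB probes printed 10 times on each array (red, miR-511 mimic; blue, control mimic), and each bar is the mean of an array. All panels have the same height in log2 units, and the spots of the treatments intermingle in every panel, with NFKB1 lower in experiment 2 under both mimics.

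NFKBIB encodes IkB beta, an inhibitor that is resynthesized more slowly, and it showed the widest differences among the members. Its brighter probe (chr19:39397888-39397947, plus strand, annotated to transcript variant 1) had 9.21 and 9.30 with the miR-511 mimic and 9.10 and 8.55 with the control mimic. The treatments did not overlap, but the control array of experiment 2 lay 0.55 below the nearest of the other 3, which spanned 0.20 among them. The miR-511 mimic array was higher by 0.11 in experiment 1 and by 0.75 in experiment 2, and the log2FC was 0.43 (SE 0.21, limma adjusted p = 1.00), a fold of 1.34 with a 95% confidence interval of 0.898 to 2.01. Of all tested probes, 94.9% had a smaller change. Among the 2470 tested probes within 0.5 of its level on the log2 scale, 1.13% differed by at least as much in experiment 2, and 48.0% in experiment 1.

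The fainter NFKBIB probe (chr19:39398611-39398670, plus strand, annotated to transcript variant 2) differed in the opposite direction on the same array. It had 7.68 and 7.48 with the miR-511 mimic and 7.50 and 8.17 with the control mimic. Here the control array of experiment 2 was the highest, 0.49 above the nearest of the other 3, which spanned 0.20. The difference was 0.18 in experiment 1 and -0.69 in experiment 2, and the log2FC was -0.25 (SE 0.26, 95% confidence interval -0.96 to 0.45). The probes of NFKBIB thus agreed in sign in experiment 1 and disagreed in experiment 2. Without the control mimic array of experiment 1, the array that stood apart was the only control. The log2FCs of the brighter and the fainter probe were then 0.70 and -0.59, in opposite directions. Without the control mimic array of experiment 2, the one that stood apart, they were 0.15 and 0.082.

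The control array of experiment 2 was also the one farthest from the rest for NFKBIE, which encodes IkB epsilon. Its probe (chr6:44226558-44226617, minus strand) had 12.80 and 12.87 with the miR-511 mimic and 12.85 and 12.61 with the control mimic. The difference was -0.050 in experiment 1 and 0.26 in experiment 2, and the log2FC was 0.10 (SE 0.12). Across all tested probes, that array lay more than 0.5 from the nearest of the other 3 for 1.96%, as against 1.21% for the control array of experiment 1, 3.62% for the miR-511 array of experiment 1 and 1.23% for that of experiment 2. Any 1 array lay that far apart for 6.99% of all tested probes and for 1 of the 12 member probes, the brighter of NFKBIB. The distance of 0.5 was chosen after the member values were seen.

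TNFAIP3 encodes A20, a ubiquitin-editing enzyme that shuts off signalling upstream of the IkB kinases. Its probe (chr6:138203679-138203738, plus strand) had 7.34 and 7.99 with the miR-511 mimic and 7.82 and 7.80 with the control mimic. The control arrays were 0.021 apart (-0.021 for experiment 2 minus experiment 1), and the miR-511 arrays lay on either side of them, 0.65 apart. The difference was -0.48 in experiment 1 and 0.19 in experiment 2, and the log2FC was -0.15 (SE 0.24, 95% confidence interval -0.81 to 0.51). Among the 2290 tested probes of similar level, 5.15% differed by at least as much in experiment 1 and 26.3% in experiment 2. Without the miR-511 mimic array of experiment 2, the log2FC was -0.47, and without that of experiment 1 the sign was positive, at 0.18.

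**Figure D4:**
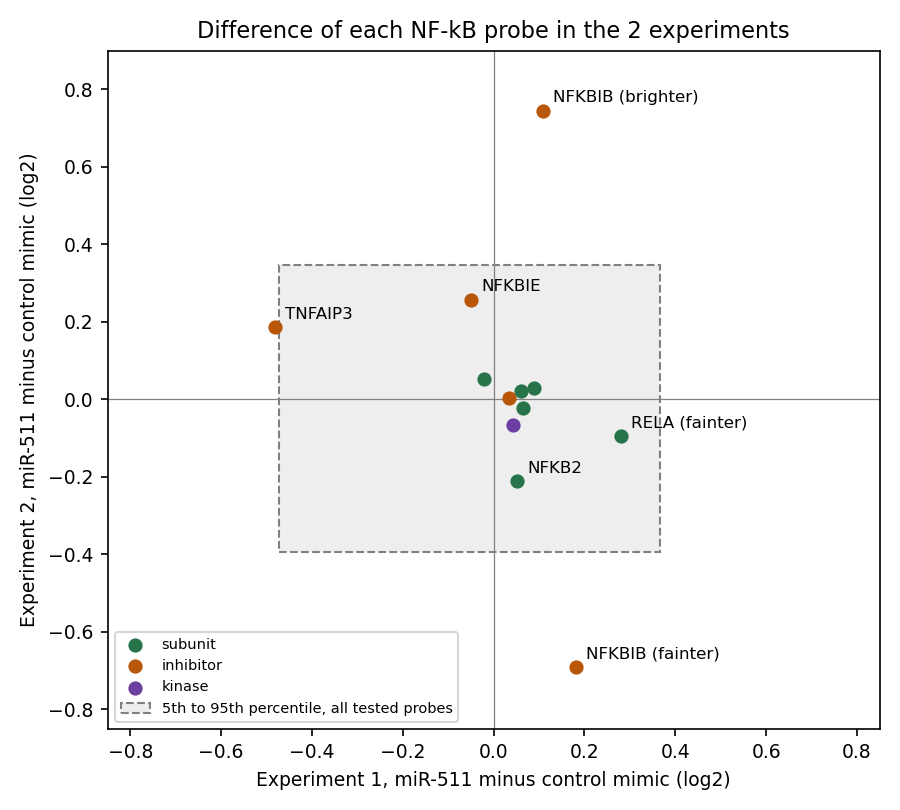
Each point is 1 NF-kB probe, with its miR-511 mimic minus control mimic difference (log2) in experiment 1 on the x axis and in experiment 2 on the y axis, and the shaded box spans the 5th to the 95th percentile of all tested probes in each experiment. Both NFKBIB probes lie outside the box through experiment 2, in opposite directions. TNFAIP3 lies just outside its left edge through experiment 1 (-0.48 against -0.47), and the other probes lie inside.

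The inhibitors were then set against the subunits, each gene by its brightest probe. The 4 inhibitors had a median difference of -0.0081 in experiment 1 and of 0.22 in experiment 2, while the 5 subunits had 0.060 and 0.021. The inhibitors' median was therefore lower than that of the subunits by 0.068 in experiment 1 (-0.068) and higher by 0.20 in experiment 2. Over both experiments the inhibitors' median log2FC was 0.061 (range -0.15 to 0.43) and the subunits' 0.021 (range -0.080 to 0.059), and the median over all tested probes was 0.0098. The resulting contrast of 0.041 was smaller than the SD of 0.19 between the experiments. In each class, 2 genes were higher in both experiments and 0 lower in both, against 29.3% and 21.7% of all tested probes. The classes differed in width: the inhibitor log2FCs spread over a wider range than those of the subunits. The array values behind that width are those of NFKBIB and TNFAIP3. The classes also differed in printing. The probes used for NFKB1, NFKB2, RELA and NFKBIA were printed 10 times, and those for REL, RELB, NFKBIB, NFKBIE and TNFAIP3 once. Whether printing bears on the width was not tested.

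How large a change these data could have missed differs between the members. For 9 probes of 8 genes (both RELA probes and those of NFKB1, NFKB2, REL, RELB, NFKBIA, NFKBIE and IKBKB) the SE was 0.089 to 0.13, and their 95% confidence intervals all lay between folds of 0.762 and 1.36. For the other 3 probes, of NFKBIB and TNFAIP3, the SE was 0.21 to 0.26, with an interval for TNFAIP3 from 0.571 to 1.43. These splits were made after the values were seen. A p above the threshold does not show that a transcript was unchanged, and an exact permutation test of 2 arrays against 2 cannot give a two-sided p below 0.333.

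The rest of the pathway was read from a list of 37 genes for kinases, adaptors, ubiquitin enzymes, nuclear IkB proteins and other regulators. All 37 were tested, and 0 passed the unadjusted threshold in limma, against the same 2.20% of all probes. The median log2FC was -0.0028, with 18 genes higher and 19 lower. In both experiments 10 were higher and 5 lower, where 29.3% and 21.7% of all tested probes were. The partners of IKBKB in the kinase complex had small differences, with a log2FC of 0.057 (SE 0.091) for CHUK, which encodes IKK alpha, and of -0.023 (SE 0.11) for IKBKG, which encodes the scaffold NEMO. The 6 kinases had a median of 0.056, the 12 adaptors -0.014, the 11 ubiquitin enzymes -0.022 and the 3 nuclear IkB proteins 0.00092.

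The 3 pathway genes with the largest log2FC in size, named after their values were seen, each had 1 array apart from the other 3. Since 0 pathway genes passed the threshold, a large log2FC among them comes with a wide spread between arrays. The pattern thus follows in part from the choice of genes. NFKBIL1, which encodes a protein with sequence similarity to IkB, had 14.49 and 14.37 with the miR-511 mimic and 14.22 and 12.81 with the control mimic (log2FC 0.91, SE 0.50), and its other probe gave -0.10 (SE 0.12). TNIP2, which encodes an A20-binding protein, had 9.26 and 9.06 against 9.18 and 10.24 (log2FC -0.55, SE 0.38). COMMD1, which promotes removal of p65, had 10.82 and 11.75 against 11.48 and 11.70 (log2FC -0.31, SE 0.34). In the first pair the array apart was the control array of experiment 2, and in COMMD1 the miR-511 array of experiment 1.

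Genes that NF-kB is known to transcribe were read as well, from a list of 33. Of these 27 were tested, and 6 had no probe well above background on any array: IL1A, IL6, CXCL8 (IL8 in the files), CXCL3, TRAF1 and ICAM1. By the brightest tested probe of a gene, 2 rose past the unadjusted threshold, against 1.27% of all tested probes in that direction, and 0 fell, against 0.932%. They were MMP9, a matrix-degrading protease, and IL1B, the cytokine interleukin 1 beta. MMP9 had 6.87 and 6.70 with the miR-511 mimic and 6.31 and 6.41 with the control mimic (log2FC 0.42, SE 0.11, 95% confidence interval 0.12 to 0.73). IL1B had 7.40 and 7.53 against 7.20 and 7.15 (log2FC 0.29, SE 0.10, 95% confidence interval 0.015 to 0.57). Both had an adjusted p of 1.00 in limma. A second, fainter probe of the chemokine gene CXCL2 also passed the unadjusted threshold (log2FC 0.40, SE 0.096), while its brighter probe gave 0.026 (SE 0.25), so that 3 target genes were called by any of their probes. Neither MMP9 nor IL1B was past the threshold under every setting. IL1B was lost with 75th percentile scaling, normexp correction, the intensity trend, the ordinary t-test and the experiment block. It was also lost with each array left out. MMP9 was lost with the ordinary t-test and without the miR-511 array of experiment 1 or either control array.

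The median log2FC over the 27 target genes was 0.026, with 15 higher and 12 lower. In both experiments 11 were higher and 6 lower, where 29.3% and 21.7% of all tested probes were. By class, the medians were 0.20 for the 11 cytokines and chemokines, -0.012 for the 7 survival genes and 0.053 for the 9 surface and other genes. TNF, a cytokine that both activates NF-kB and is made under its control, had a log2FC of 0.20 (SE 0.15). With the experiment as a block, 5 target genes passed the unadjusted threshold in limma, where 3.95% of all tested probes did (894): CCL2, CCL3, CCL4, MMP9 and CXCL10. Of these, the probes of CCL3, CCL4 and MMP9 were well above background on all 4 arrays, that of CCL2 on 3 and that of CXCL10 on 2, so the calls of CCL2 and CXCL10 rest in part on values not above background. By the brightest probe, the chemokine genes CCL3 and CCL4 were higher with the miR-511 mimic in both experiments, by 0.41 and 0.24 and by 0.99 and 0.55. In the fit without the block, that CCL4 probe gave a log2FC of 0.77 (SE 0.35) and the other CCL4 probe 0.50 (SE 0.44). For CXCL10 the brightest probe was well above background on both control mimic arrays and on 0 of the miR-511 arrays. It was thus tested through its control arrays alone, a filter that favours lower values with the miR-511 mimic. With each dim array set no lower than its lowest signal above background, its mean was at least 1.63-fold lower with the miR-511 mimic. This is a lower limit, and the means as measured were 4.09 with the control mimic and 2.40 with the miR-511 mimic. The control values, 4.57 and 3.62, were themselves low. The other CXCL10 probe, also well above background on only 2 arrays, gave a log2FC of -1.47 (SE 0.88). Without the block the brightest probe was not past the threshold.

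**Figure D5:**
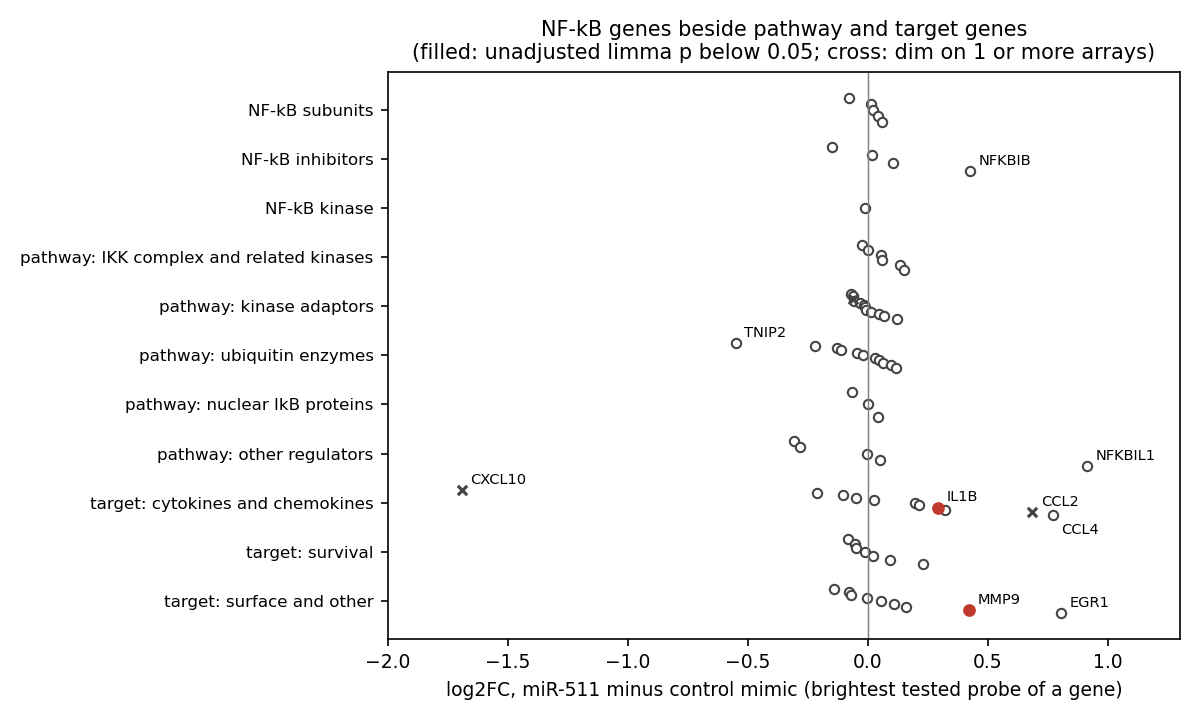
Each point is 1 gene by its brightest tested probe, with the log2FC (miR-511 mimic minus control mimic) on the x axis and the gene classes on the y axis; filled points have an unadjusted limma p below 0.05, and crosses are probes not well above background on all 4 arrays. The subunits and the kinase sit near 0, the inhibitors reach 0.43 at NFKBIB, and the filled points are MMP9 and IL1B.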

How the data were processed

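Transcripts of THP1 cells were measured on single-dye Agilent whole-genome arrays, 2 per treatment. The authors deposited scanner files made with the Agilent Feature Extraction software, whose processed intensity is background-subtracted and not normalized between arrays, and a table of log2 values that ranks the spots as the intensities do, whose 4 arrays were normalized together. Probe coordinates are those of the files (hg19). By accession, 11 of the 12 member probes matched the RefSeq gene table (GRCh38.p14), each with the same symbol. Where in a transcript a probe lies was not analysed here.

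Processed intensities of 43118 non-control spots were log2 transformed without the 232 to 301 marked outlier spots per array, quantile normalized, and averaged over the spots of a probe (R 4.3.3, limma 3.58.1). Probes were tested if, in 1 treatment or both, each array had more than 50% of their spots well above background (22638 of 34127 probes). limma's lmFit and eBayes compared treatments (4.14 degrees of freedom, two-sided), at an unadjusted p below 0.05, the first of the study's 2 criteria, and after Benjamini-Hochberg adjustment over all tested probes. The study's other criterion, a test over identical replicate probes, was not applied. The functions were tested on simulated data. Arrays sharing an experiment number are paired by the labels, and their deviations from the treatment means correlated at 0.271 over probes. Every probe of the 10 genes is named, and of the other lists the genes past the unadjusted threshold and those dim on every array, with exceptions stated. The members and lists were chosen with earlier results of these data known. Alternatives were 75th percentile scaling, normexp correction (offset 50), the filter on dim probes, marked spots, the deposited table and the experiment block. Further ones were an intensity trend, an ordinary t-test between the arrays, the probe taken for a gene, and each array left out.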

Additional observations from a re-analysis of the deposited data

How the results depend on the processing

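Of 144 log2 differences of member probes recomputed under the alternatives, 127 kept their direction and side of the threshold, 14 changed sign and 3 passed the unadjusted threshold with the same sign. The changed filters on dim probes, the experiment block and the intensity trend leave the log2FC of a member as it was. Under those settings the direction could not change. Changes of sign came from leaving out 1 array, apart from IKBKB, which was 0.0012 with 75th percentile scaling and 0.049 with normexp correction. With each array left out, the log2FC ran from -0.035 to 0.15 for NFKB1, -0.18 to 0.019 for NFKB2 and -0.0087 to 0.039 for REL. It ran from -0.023 to 0.065 and -0.020 to 0.21 for the brighter and fainter RELA probes, and -0.010 to 0.092 for RELB. For NFKBIA it stayed positive, at 0.0070 to 0.031. The range was 0.15 to 0.70 for the brighter NFKBIB probe and -0.59 to 0.082 for the fainter. It was -0.017 to 0.22 for NFKBIE, -0.47 to 0.18 for TNFAIP3 and -0.095 to 0.074 for IKBKB. In these fits the lone array of a treatment is assumed to vary like the other treatment. Under the settings that kept all 4 arrays, 0 member probes were called, against 1.17% to 3.95% of all tested probes. The inhibitors minus subunits contrast ranged from -0.014 to 0.18 with each array left out. It was 0.012 with the mean over the probes of a gene.

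With the experiment number as a replicate block, 894 probes passed the unadjusted threshold in place of 498, 0 of them members and 5 of them target genes by the brightest probe, and no member call changed. The count was 265 with normexp correction, 1029 with no filter on dim probes, 285 with an intensity trend and 516 to 1379 with each array left out, the last without the miR-511 mimic array of experiment 2. Target genes called were 1 with 75th percentile scaling and 1 with the intensity trend. Of the probes called, 42.4% were lower with quantile normalization and 54.8% with 75th percentile scaling, and with quantile normalization this share was 63.7% without the miR-511 mimic array of experiment 1 and 74.2% without that of experiment 2. After adjustment, 0 probes passed in every setting. The causes of these changes were not tested.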
